A study of Arabidopsis thaliana with 12 samples.

Results

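The 4 genes AT3G15450, AT5G19120, AT4G33150 and MCCB were followed through 12 arrays as genes of carbon starvation and of amino acid breakdown. They were selected on their differences between the transgenic lines and Col-0 in these same arrays, so their levels and differences are given as a description and carry no test. Each has 1 probe set, the group of short probes by which the array measures a transcript, so 4 of the 22746 probe sets tested are concerned. RNA came from the green tissue of Arabidopsis thaliana plants of the Col-0 ecotype, 3 weeks old, grown on soil at 23 °C with 10 h of light and 14 h of dark after 3 days of stratification. The 4 groups, of 3 biological replicates each, were a line with reduced CHLD expression by RNA interference (RNAi) given 20 µg/ml dexamethasone, Col-0 given the same dexamethasone, a line overexpressing CHLM given 20 µM β-estradiol, and a Col-0 set that received this β-estradiol too. The steroids were sprayed to switch on the transgenes, and the Col-0 controls carry no transgene but received the steroid. CHLD and CHLM act one after the other in chlorophyll synthesis, as part of magnesium chelatase and as the methyltransferase that follows it. The promoters, the number of independent transformants, the number of plants pooled and the time between spraying and harvest are not given in the sources used here.

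A leaf that runs short of sugar, in a long night or in shade, turns to other fuels. It breaks down protein, and the carbon skeletons of the amino acids feed the mitochondrial electron transport chain. AT4G33150 encodes the bifunctional lysine-ketoglutarate reductase and saccharopine dehydrogenase, which carries out the opening steps of lysine breakdown. MCCB encodes the beta subunit of 3-methylcrotonyl-CoA carboxylase, a biotin enzyme of the mitochondrial breakdown of leucine, and MCCA encodes its partner, the alpha subunit. AT3G15450 and AT5G19120 are grouped here with the transcripts that respond to carbon starvation, but the annotation used here gives them neither a name nor a product.

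All values are taken as log2 signal, so a difference of 1 is a doubling of the linear signal. The array medians lay between 6.26 and 6.31, and all 4 genes were above the median of their array on 12 of 12 arrays. The 3 arrays of Col-0 under estradiol were the least alike, with a Pearson correlation down to 0.99 across probe sets. The lowest value within any other group was 0.994. These correlations do not say which of the 3 stood apart. Replicate 1 was set apart by the chosen genes. It lay above its group mean by 0.65 for AT3G15450, 0.41 for AT5G19120 and 1.25 for AT4G33150, but stood at -0.03 for MCCB. Values of the 4 genes that use this array are therefore given with and without it. Because the array was picked on these genes' own values, a smaller spread without it follows in part from that choice. As a check of the labels, CHLM was at 14.48, 13.96 and 14.24 in the CHLM line and at 11.71, 11.72 and 11.68 in Col-0 under estradiol. CHLD itself was not analysed here. Listed genes are called measured where a probe set was named for them here. Of the 8 listed markers of green leaf tissue 3 were measured (RCA, SBPASE and PRK), and the log2 of their summed signal was 14.61 to 14.82 in the CHLD line against 14.71 to 14.73 in its control, and 14.72 to 14.76 in the CHLM line against 14.70 to 14.72. RNA was taken from whole green tissue, in which fewer cells of a type and less RNA per cell cannot be told apart.

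AT3G15450 was the most lowered of the 4 genes in the CHLD line. Its log2 signal was 8.57, 8.29 and 9.36 in replicates 1 to 3 of the CHLD line, against 10.62, 11.10 and 11.07 in Col-0 under dexamethasone. The CHLM line read 8.35, 8.87 and 8.54, against 10.70, 9.70 and 9.74 in Col-0 under estradiol. Neither line overlapped its control, and the lines themselves ended at much the same level, with means of 8.74 ± 0.555 and 8.59 ± 0.263 (SD, n = 3). The difference was -2.19 (SE 0.28), or 4.56-fold lower, in the CHLD line, the 13th lowest of the 22746 probe sets. It was -1.46 (SE 0.28), or 2.75-fold lower, in the CHLM line, and -1.13 (SE 0.241), or 2.19-fold, without replicate 1 of Col-0 under estradiol.

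AT5G19120 varied little in Col-0 under dexamethasone. There it was at 9.25, 9.29 and 9.26, and in the CHLD line at 8.02, 7.70 and 8.06. The CHLM line read 7.38, 7.71 and 7.50, against 8.87, 8.19 and 8.31 in Col-0 under estradiol. Both lines lay wholly below their controls. The differences were -1.34 (SE 0.155), a 2.53-fold lower signal, in the CHLD line and -0.93 (SE 0.155), 1.9-fold lower, in the CHLM line, the latter -0.72 (SE 0.124) without replicate 1 of Col-0 under estradiol.

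AT4G33150, the lysine breakdown gene, was the most lowered of the 4 in the CHLM line. There it was at 6.47, 6.75 and 6.34, against 9.73, 7.79 and 7.91 in Col-0 under estradiol. In the CHLD line it was at 6.81, 6.88 and 7.04, against 8.69, 8.88 and 8.31 in Col-0 under dexamethasone. No array of a line reached a control, and the spread was almost all in the estradiol control, whose SD of 1.09 came from replicate 1. The differences were -1.72 (SE 0.362), or 3.29-fold lower, in the CHLD line and -1.96 (SE 0.362), or 3.88-fold lower, in the CHLM line. Without replicate 1 of Col-0 under estradiol the CHLM value was -1.33 (SE 0.154), or 2.51-fold. The same array entered the common estimate of the spread, and the SE of the CHLD difference was 0.138 without it at the same -1.72.

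MCCB, the leucine breakdown gene, differed least from its controls. It was at 8.29, 8.11 and 8.14 in the CHLD line and at 8.58, 8.50 and 8.36 in Col-0 under dexamethasone, a difference of -0.30 (SE 0.0885), or 1.23-fold, in which the groups were 0.07 apart. The CHLM line read 8.19, 8.19 and 8.32, and in Col-0 under estradiol at 8.23, 8.25 and 8.31, so that the groups overlapped. The difference there was -0.03 (SE 0.0885), and -0.05 (SE 0.102) without replicate 1 of the control. Of all probe sets 10.0% were as low or lower in the CHLD comparison and 39.0% in the CHLM comparison. The levels of MCCB over all 12 arrays ran from 8.11 to 8.58, where those of AT3G15450 ran from 8.29 to 11.10.

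**Figure D1:**
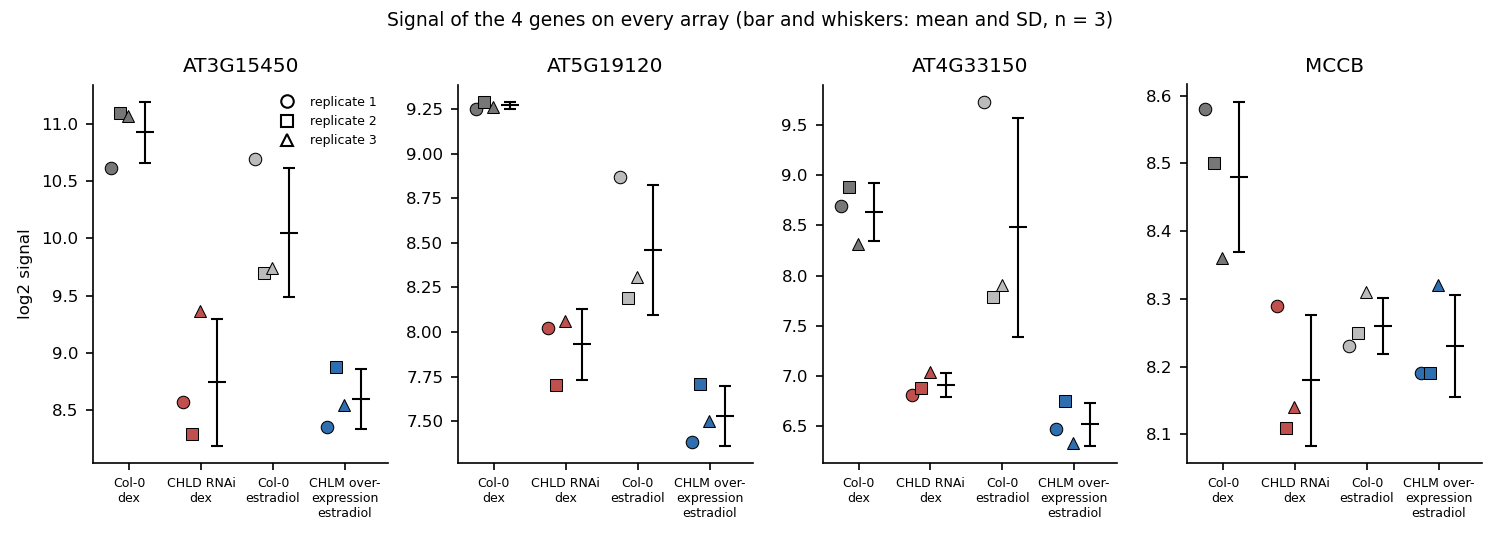
Log2 signal (y axis) of the 4 genes on every array, by group (x axis), with 1 symbol per replicate number and, beside the points, the group mean and SD (n = 3). AT3G15450, AT5G19120 and AT4G33150 lie lower in both lines than in the matching Col-0 group, replicate 1 of Col-0 under estradiol is the highest of its group for these 3 genes, and MCCB spans only 8.11 to 8.58 (the y axes differ and do not start at 0).

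Counted over the genes, all 3 arrays of the CHLD line lay below all 3 controls for 4 of 4 genes, a pattern that 15.8% of all probe sets showed. In the CHLM line this was so for 3 of 4 genes, against 11.3% of all probe sets. These contrasts helped to choose the genes, and nothing is read from the counts.

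The 2 Col-0 groups were not at the same level. AT3G15450 was at a mean of 10.93 under dexamethasone and 10.05 under estradiol, a difference of 0.88 (SE 0.28) with overlapping groups. AT5G19120 was at 9.27 and 8.46, a difference of 0.81 (SE 0.155), and did not overlap. AT4G33150 was at 8.63 and 8.48, a difference of 0.15 (SE 0.362), and overlapped, while MCCB was at 8.48 and 8.26, a difference of 0.22 (SE 0.0885), with groups 0.05 apart. The AT4G33150 difference turned to -0.19 without replicate 2 and -0.13 without replicate 3 of Col-0 under estradiol. Groups that do not overlap were thus seen in 2 of 4 genes, against 14.9% of all probe sets. Without replicate 1 of Col-0 under estradiol the differences were 1.21 (SE 0.241), 1.02 (SE 0.124), 0.78 (SE 0.154) and 0.20 (SE 0.102) in the same order. The inducer and any difference in how the 2 Col-0 sets were grown or handled cannot be told apart.

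The order of the group means was the same for AT3G15450, AT5G19120 and AT4G33150, with Col-0 under dexamethasone highest, then Col-0 under estradiol, then the CHLD line, and the CHLM line lowest. The top 2 groups overlapped for AT3G15450 and AT4G33150 and the bottom 2 overlapped for AT3G15450 and for AT5G19120, while Col-0 under estradiol and the CHLD line did not overlap for any of these genes. MCCB had the same 2 highest groups but the other order of the lowest 2. Its CHLD line was lowest at 8.18 ± 0.0964 (SD, n = 3) and its CHLM line next at 8.23 ± 0.0751, and these overlapped. The CHLM effect minus the CHLD effect was 0.73 (SE 0.395) for AT3G15450, 0.41 (SE 0.219) for AT5G19120, -0.24 (SE 0.511) for AT4G33150 and 0.27 (SE 0.125) for MCCB. Without replicate 1 of Col-0 under estradiol these became 1.06, 0.62, 0.39 and 0.25, which turned the sign for AT4G33150. In that fit each of the 4 genes was less lowered in the CHLM line than in the CHLD line, each against its own control. The controls differed as well, by 1.21, 1.02, 0.78 and 0.20 in the same order of genes. A difference between the transgenes cannot be told apart here from a difference between the controls.

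For 3 of the genes the highest array of each group was the same. AT3G15450, AT5G19120 and AT4G33150 were each highest in replicate 2 of Col-0 under dexamethasone, replicate 3 of the CHLD line, replicate 1 of Col-0 under estradiol and replicate 2 of the CHLM line. Some of these margins were small, such as 9.29 against 9.26 for AT5G19120 in Col-0 under dexamethasone. Replicate 1 of Col-0 under estradiol lay above its group mean by 0.65 for AT3G15450, 0.41 for AT5G19120 and 1.25 for AT4G33150, and replicate 3 of the CHLD line lay above by 0.62, 0.13 and 0.13. MCCB shared none of these 4 arrays and was highest in replicates 1, 1, 3 and 3. Over all 22746 probe sets, 254 (1.12%) had their highest value on the same 4 arrays as AT3G15450. This pattern was noticed after the values were seen, the arrays are shared by all genes, and the count is a description.

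**Figure D2:**
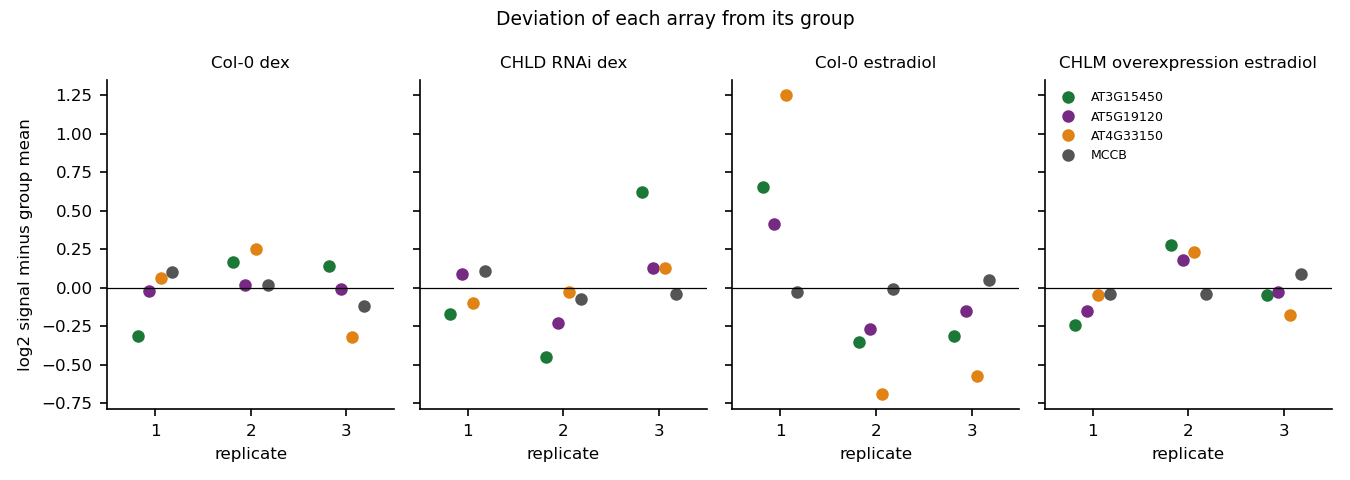
Log2 signal of each array minus the mean of its group (y axis) for the 4 genes, by replicate (x axis), with 1 panel per group. AT3G15450, AT5G19120 and AT4G33150 peak on the same array in each panel, the furthest from the mean being AT4G33150 at 1.25 in replicate 1 of Col-0 under estradiol, while MCCB peaks on other arrays.

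The genes around MCCB in leucine breakdown were taken from a list of enzymes that degrade leucine, valine and isoleucine, of which 7 of 14 were measured. MCCA, the partner subunit of MCCB, fell in the CHLD line. It was at 7.26, 6.97 and 7.41 there and at 7.78, 8.0 and 7.88 in Col-0 under dexamethasone (log2 difference -0.67, SE 0.2, limma adjusted p = 0.0408). The groups did not overlap, but the call was lost when any 1 of the Col-0 dexamethasone replicates, replicate 1 or 2 of the CHLD line, or replicate 2 of the CHLM line was left out (adjusted p between 0.0548 and 0.148) and under the other variance model (0.059), and the adjusted p was 0.00355 without replicate 1 of Col-0 under estradiol. In the CHLM line MCCA was at 6.89, 7.11 and 7.37 against 8.17, 7.21 and 7.47, which overlapped (-0.49, adjusted p = 0.136, and -0.22 without replicate 1 of Col-0 under estradiol, adjusted p = 0.45). IVD, the isovaleryl-CoA dehydrogenase that acts just before the carboxylase in leucine breakdown, stood at -0.50 (SE 0.179, limma adjusted p = 0.0834) in the CHLD line and at -0.48 (adjusted p = 0.109) in the CHLM line, neither past the threshold. The CHLD difference did pass without replicate 1 of Col-0 under estradiol (adjusted p = 0.0395), without replicate 3 of the CHLD line (0.0305) and with only the groups compared (0.0333), and the CHLM difference was -0.31 without that control array. Its arrays read 7.59, 7.39 and 8.01 in the CHLD line against 8.24, 8.19 and 8.07, all lower than the control.

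The rest of the list did not go the same way. AT5G09300, AT4G16800, AT2G26800 and AT4G20930 stood at 0.40, 0.26, 0.14 and 0.10 in the CHLD line, and ALDH6B2, an aldehyde dehydrogenase, at 0.13. With all arrays AT5G09300 and AT4G16800 did not pass there (limma adjusted p = 0.0818 and 0.0933). Without replicate 1 of Col-0 under estradiol both passed as rises (adjusted p = 0.0167 and 0.0444). The counts that follow are with all arrays. Of the 7 genes 0 rose and 1 fell in the CHLD line, with a median difference of 0.13 against -0.01 for all probe sets. By limma 12.4% of all probe sets changed in that comparison, 6.34% lower and 6.07% higher. In the CHLM line 0 of the 7 passed in either direction, with a median of 0.04 against 0.02 for all, where 9.75% of all probe sets changed, 4.3% lower and 5.44% higher. These shares of all probe sets apply to each list below as well.

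The electrons of IVD pass through the electron transfer flavoprotein to its ubiquinone oxidoreductase, ETFQO, which D2HGDH also feeds. All 4 listed genes of this system were measured. ETFBETA, a subunit of the flavoprotein, fell in the CHLD line from 8.23 ± 0.0755 to 7.90 ± 0.157 (SD, n = 3; log2 difference -0.33, SE 0.099, limma adjusted p = 0.0449). This call was lost under 8 of the 12 single-array omissions (any Col-0 dexamethasone array, replicate 1 or 2 of the CHLD line, replicate 2 or 3 of Col-0 under estradiol, and replicate 2 of the CHLM line), with adjusted p up to 0.158, with a replicate block (0.0533) and with only the groups compared (0.0516). ETFALPHA, ETFQO and D2HGDH stood at -0.05, -0.10 and -0.18 and did not pass. All 4 were, in the CHLM line, between -0.18 and -0.03 and none passed.

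Of the 18 other amino acid breakdown genes listed, 5 were measured. AT2G24580 rose in both lines, by 0.37 (SE 0.109, limma adjusted p = 0.0382) in the CHLD line and by 0.43 (SE 0.109, adjusted p = 0.0251) in the CHLM line. The CHLD call was lost when any 1 of its 6 arrays was omitted (adjusted p up to 0.131) and with a replicate block (0.0536). The CHLM call was lost when replicate 1 of Col-0 under estradiol or replicate 2 or 3 of the CHLM line was omitted (up to 0.084) and with only the groups compared (0.0947). MGL, methionine gamma-lyase, stood at -0.37 (adjusted p = 0.271) and -0.64 (adjusted p = 0.0595), the latter at -0.37 without replicate 1 of Col-0 under estradiol. The asparaginase genes ASPGA1 and ASPGB1 stood at -0.26 and 0.22 in the CHLD line and at -0.25 and 0.32 in the CHLM line, and did not pass. Amino acid synthesis could be seen in few genes, 2 of 14 listed for lysine and 3 of 14 for leucine, and none of these passed in either line. AT1G14810 of the lysine list stood at 0.42 (adjusted p = 0.0575) in the CHLD line and at 0.20 in the CHLM line, the latter at 0.04 without replicate 1 of Col-0 under estradiol. AT3G23940 of the leucine list stood at 0.41 (adjusted p = 0.0981) in the CHLM line, or 0.25 without that array.

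For carbon starvation the probe sets that could be named here offered little beyond the chosen genes. None of the 8 listed dark-inducible genes and 1 of 13 sugar starvation genes had a probe set named here. That gene, AKINBETA1, encodes a beta subunit of SnRK1, the kinase that plants activate when energy is short. It was at 8.0, 7.67 and 8.08 in the CHLD line against 8.49, 8.84 and 8.60 in Col-0 under dexamethasone, and fell by 0.73 on the log2 scale (SE 0.151, limma adjusted p = 0.00657). It was at 7.09, 7.38 and 7.27 in the CHLM line against 8.62, 8.12 and 8.10, and fell by 1.03 (SE 0.151, limma adjusted p = 0.00154), or by 0.86 without replicate 1 of Col-0 under estradiol. Both calls held without any 1 of the 12 arrays, with adjusted p up to 0.0401 and 0.0101. Of 15 listed genes of energy signalling 5 were measured, and AKINBETA1, which is on that list too, was the only one that passed. The share of all probe sets called was 12.4% in the CHLD line and 9.75% in the CHLM line. The other beta subunit genes AT4G16360 (KINbeta2) and AT2G28060 (KINbeta3) stood between -0.07 and 0.18 in both lines, and the bZIP transcription factor genes bZIP44 and BZIP53 at -0.38 and 0.12 in the CHLD line and at -0.02 each in the CHLM line.

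**Figure D3:**
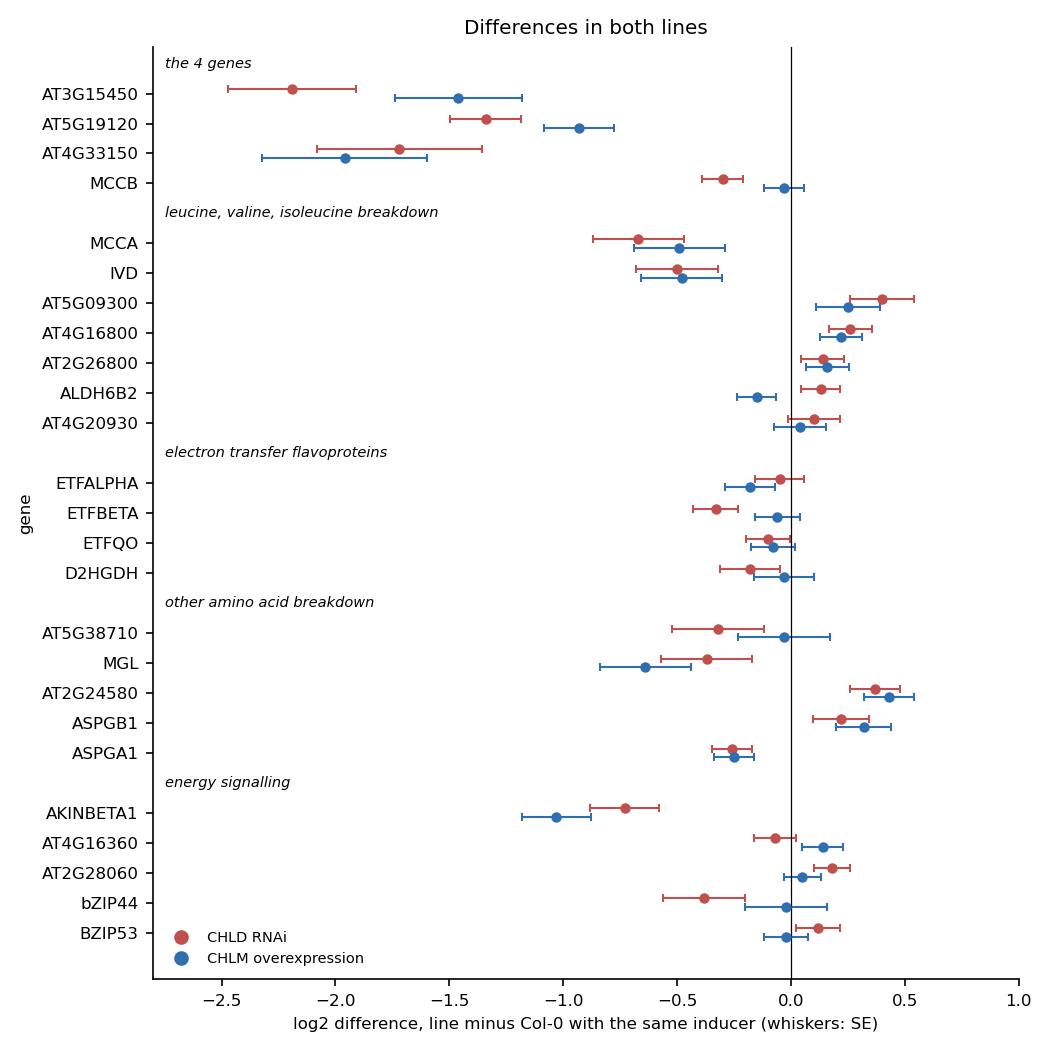
Log2 difference between each line and Col-0 with the same inducer (x axis, whiskers SE from limma, n = 3 per group) for the 4 genes and 21 measured genes of 4 related lists (y axis). AT3G15450, AT5G19120 and AT4G33150 lie between -2.19 and -0.93 in both lines, AKINBETA1 lies at -0.73 and -1.03, MCCA and IVD lie between -0.67 and -0.48, and MCCB and the remaining genes lie between -0.64 and 0.43.

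AKINBETA1 had its highest values on the same 4 arrays as AT3G15450, as did AT4G20930 and BGLU16 among the 32 related genes measured, or 9.38% of them against 1.12% of all probe sets. Another 6 of the 32 matched in 3 of the 4 groups (MCCA, IVD, ETFQO, ETFBETA, ATBCAT-5 and BZIP53), as did 8.97% of all probe sets. The pattern was taken from AT3G15450 after its values were seen and all genes share the arrays, so these shares are a description. AT4G20930, which had the pattern, stood at 0.10 in the CHLD line and 0.04 in the CHLM line and did not pass. Over the 10 metabolic lists 8 of these 32 genes passed in the CHLD line (4 rose, 4 fell) and 2 in the CHLM line (1 rose, 1 fell). Of all probe sets 12.4% were called in the CHLD line and 9.75% in the CHLM line. With all arrays the called share of the 32 genes was higher than this in the CHLD line and lower in the CHLM line. Because the lists were chosen with earlier results of these data known, this is a description and nothing is read from it. The CHLD count was 4 or 5 without any 1 of the Col-0 dexamethasone arrays or replicate 1 or 2 of the CHLD line, and 12 without replicate 1 of Col-0 under estradiol. The CHLM count was 1 without replicate 1 of Col-0 under estradiol or replicate 2 or 3 of the CHLM line. Between the Col-0 groups 0 of 32 passed by limma, with 9 at an unadjusted p under 0.05, where 0.0484% of all probe sets were called. This count was 5 without replicate 1 of Col-0 under estradiol and 1 without replicate 3 of Col-0 under dexamethasone. For the CHLM effect minus the CHLD effect 0 of 32 passed, with 3 at an unadjusted p under 0.05, where 1.13% of all probe sets were called. It was 1 without either of these arrays, DFR in both cases.

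Among markers of other tissue states, WRKY53, a senescence-linked transcription factor gene and the 1 of 7 listed senescence markers measured, rose in both lines (by 1.09, limma adjusted p = 0.000633, and by 0.60, adjusted p = 0.0314), the latter call being lost without replicate 1 of Col-0 under estradiol or replicate 2 or 3 of the CHLM line (adjusted p up to 0.1) and with only the groups compared (0.104). Without that control array the CHLM difference was 0.38. Its log2 signal was 8.12 to 8.33 in the CHLD line against 7.01 to 7.30 in the control, and 7.76 to 8.11 in the CHLM line against 6.87 to 7.55. Of 3 root markers 2 were measured, at a log2 summed signal of 11.40 to 11.80 against 11.72 to 12 for the CHLD line and 11.43 to 11.70 against 11.95 to 11.99 for the CHLM line. PYK10, one of them, fell in the CHLM line by 0.44 (limma adjusted p = 0.0301), a call lost without any 1 of the Col-0 estradiol arrays or replicate 2 or 3 of the CHLM line (adjusted p up to 0.0947). FMA, the 1 of 4 guard cell markers measured, was at 5.79 to 6.12 against 6.18 to 6.40 for the CHLD line and at 6.01 to 6.27 against 6.23 to 6.40 for the CHLM line. It fell in the CHLD line by 0.38 (limma adjusted p = 0.0361), a call lost without replicate 2 or 3 of the CHLD line or of its control (up to 0.141) and with a replicate block (0.0512). The other root marker measured, AT5G17820, was at 3.11 to 3.59, not far above the lowest value of any probe set (2.39). The summed root signal was thus almost all that of PYK10. None of the listed markers of vasculature or epidermis had a probe set named here. As a sign of RNA quality, the GAPDH control probes near the 3' end exceeded those near the 5' end by 1.07 to 1.29 in the CHLD line against 1.19 to 1.22 in its control, and by 0.84 to 1.28 in the CHLM line against 1.02 to 1.29. For actin the excess was 3.66 to 3.97 against 3.75 to 3.92, and 3.55 to 3.99 against 3.47 to 3.75. For ubiquitin it was 1.87 to 2.01 against 1.86 to 2.06, and 1.66 to 1.89 against 1.68 to 1.95. Replicate 1 of Col-0 under estradiol was the lowest of its group for actin (3.47) and ubiquitin (1.68) and the highest for GAPDH (1.29). The part of these in the lower signal of the 4 genes was not tested.

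The genes most like each of the 4 were sought among the 13432 probe sets of a single other gene, by the root-mean-square distance between log2 profiles over the 12 arrays, each centred on its own mean. Since they were picked for likeness, their differences are descriptions. AT3G15450 was nearest to AT2G37130 (distance 0.258), AT3G15630 (0.299) and AT4G27450 (0.403), which stood at -2.24, -1.68 and -1.40 in the CHLD line and at -1.53, -1.04 and -1.04 in the CHLM line. AT5G19120 was nearest to AT3G10020 (0.197), AT2G20670 (0.198) and AT5G63190 (0.198), at -1.22, -1.45 and -0.95, and at -0.90, -0.83 and -0.85. AT4G33150 was nearest to AT1G54120 (0.393), AT4G27450 (0.454) and HIS1-3, a linker histone gene (0.455), at -1.38, -1.40 and -1.62, and at -1.36, -1.04 and -2.33.

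Among the chosen genes themselves, AT3G15450 lay at a distance of 0.421 from AT5G19120 and 0.435 from AT4G33150, and AT4G33150 lay 0.537 from AT5G19120. For AT4G33150 the distance to AT3G15450 was thus smaller than that to its second nearest other gene. MCCB lay 0.948, 0.585 and 0.978 from AT3G15450, AT5G19120 and AT4G33150. Its nearest genes were AT5G65760 (0.0613), AT3G47000 (0.0676) and AT4G02720 (0.0721), short distances that go with an SD of only 0.14 over the 12 arrays, where AT3G15450, AT5G19120 and AT4G33150 had an SD of 1.08, 0.705 and 1.09. With all arrays AT3G15450, AT5G19120 and AT4G33150 thus shared an order of group means. For AT4G33150 the first 2 groups changed places without replicate 2 or 3 of Col-0 under estradiol. MCCB, grouped with them as an amino acid breakdown gene, had the same 2 highest groups. Its 2 lowest groups, which overlapped, were the other way round.

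**Figure D4:**
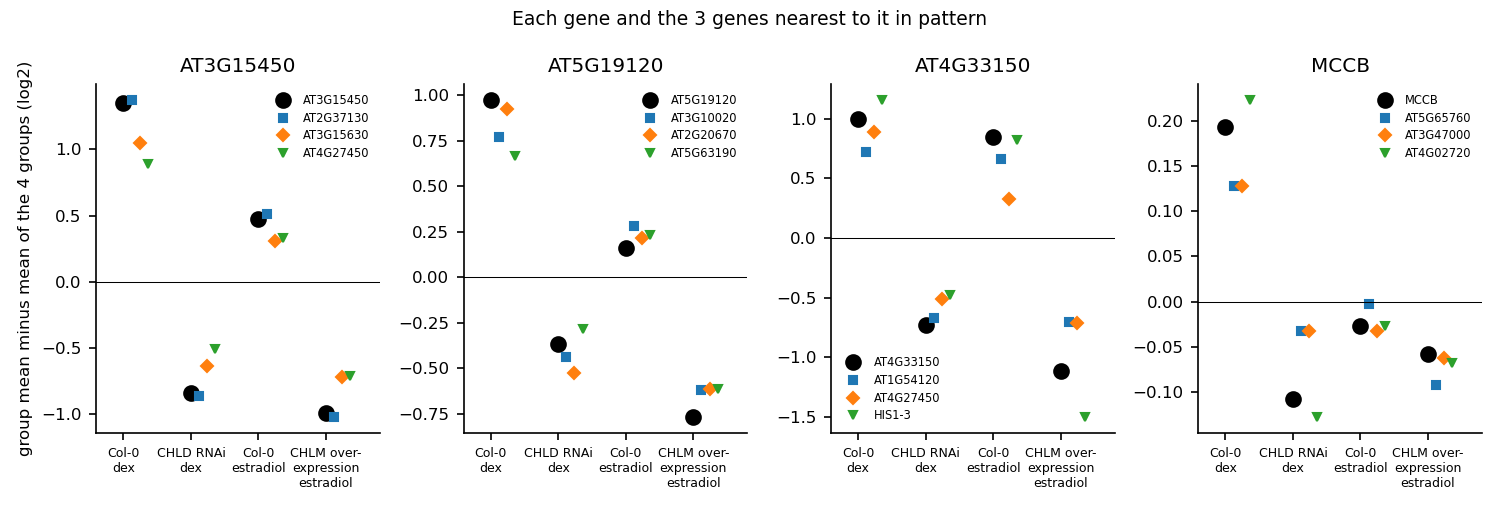
Group mean minus the mean of the 4 groups (log2, y axis) for each of the 4 genes (black) and the 3 genes nearest to it in pattern (coloured), by group (x axis, y axes differ). The black points and their neighbours fall from the Col-0 groups to the lines for AT3G15450, AT5G19120 and AT4G33150, and for MCCB the whole range is narrower, with group means from 8.18 to 8.48.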

How the data were processed

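Expression was measured on 12 one-colour Affymetrix arrays, from 100 ng of total RNA each per the labels' protocols. The authors deposited 1 column of log2 signal values per array, and the software was Affymetrix Expression Console, according to the submitters' processing notes. Version, summary method and normalization are not given in the sources used here, and the log base was taken as 2 because all values lay between 2.39 and 14.49. The values were used as deposited, and 63 control probe sets were left out of the tests, leaving 22746.

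Genes were named through the platform annotation and RefSeq's table of genes (assembly TAIR10.1). That gave 1 gene to 13513 probe sets, several to 503 and none to 8730, and 13436 of the first were found in RefSeq. A probe set without a name here is not named further.

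limma 3.58.1 in R 4.3.3 fitted the 4 groups over all 12 arrays (8 residual and 6.05 prior degrees of freedom), with two-sided moderated tests and Benjamini-Hochberg adjustment over the 22746 probe sets, at an adjusted p under 0.05. It was checked on simulated data. SE are from limma, SD over 3 arrays, and the number of arrays limits the precision. The genes, the lists and the tests were chosen with earlier results of these data known. Named genes were the 4 chosen, the 3 nearest in profile to each, the listed genes of lists with up to 10 measured members and CHLM. Same-numbered arrays did not deviate together (1 of 12 pairs correlated over 0.1), so replicate numbers were not used as pairs. Alternatives were each array left out, a replicate block, only the groups compared, 2 rescalings, a signal minimum of 5 and another variance model. No sequence is printed, since the tables used here hold none.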

Additional observations from a re-analysis of the deposited data

How the results depend on the processing

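Replicate 1 of Col-0 under estradiol moved the values of AT4G33150. Its CHLM effect minus its CHLD effect, -0.24 with all arrays, ranged from -0.58 to 0.39 when single arrays were left out and took the upper value without this array. Its difference in the CHLM line ranged from -2.30 to -1.33 and that between the Col-0 groups from -0.19 to 0.78, again with the upper values without this array. Of the 32 related genes, those called in the CHLD line numbered 8, and 4 to 12 when single arrays were left out. The count was 2 in the CHLM line, 1 to 3 when single arrays were left out and 1 with only the groups compared in the fit. It was 0 between the Col-0 groups, with 0 to 5 when single arrays were left out, and 0 for the difference of the effects, with 0 to 1. The causes were not tested. With the replicate number as a block the counts were 6, 2, 0 and 0. In this balanced design the block cannot change a difference of group means, such as -2.19 for AT3G15450 in the CHLD line. The average over several probe sets of a gene was not run, since each related gene has a single probe set. The array carries no depth, and the large share of probe sets without a gene name limits how much of each pathway was seen.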

Other observations

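Genes listed as raised by sugar, the opposite of starvation genes, were measured in 4 of 9 cases. In the CHLD line APL3, a large subunit of the enzyme that makes the starch precursor ADP-glucose, rose from 5.95, 5.71 and 5.99 to 6.39, 7.22 and 6.63 (log2 difference 0.86, SE 0.189, limma adjusted p = 0.00898). The anthocyanin genes DFR and UF3GT rose by 1.57 and 1.24 (limma adjusted p = 0.00102 and 0.00145). Lists and tests were chosen with earlier results of these data known, so these rises are a description and not independent support. DFR was at 7.10, 7.05 and 7.07 there, against 5.17, 5.18 and 6.15 in Col-0 under dexamethasone. In Col-0 under estradiol it was at 6.05, 6.81 and 6.94. Between the Col-0 groups DFR stood at -1.10 (limma adjusted p = 0.121), or -1.38 without replicate 1 of Col-0 under estradiol (adjusted p = 0.00473). UF3GT stood at -0.47 between them (adjusted p = 0.432). BGLU16, a beta-glucosidase gene, fell by 0.50 in the CHLD line (SE 0.121, limma adjusted p = 0.0162). That call was lost when replicate 2 or 3 of Col-0 under dexamethasone or replicate 1 or 2 of the CHLD line was omitted (adjusted p up to 0.0767). In the CHLM line the 4 stood at 0.43, 0.36, 0.49 and -0.31 and 0 passed, with DFR at 0.08 and UF3GT at 0.27 without replicate 1 of Col-0 under estradiol. The starch breakdown genes PWD and DPE1, 2 of 11 listed, did not pass in either line, with PWD at -0.28 (adjusted p = 0.0629) in the CHLD line.

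The genes lying next to the chosen ones on the chromosome were picked by position after their values were seen. Of the 4 flanking AT5G19120, AT5G19100 fell by 0.83 (limma adjusted p = 0.0193) and AILP1 by 0.36 (adjusted p = 0.0471) in the CHLD line, and AT5G19110 and AT5G19130 stood at -0.10 and 0.08. Of the 4 flanking AT3G15450, AT3G15460 rose by 0.42 (adjusted p = 0.00768) and the other 3 were between -0.22 and -0.08. The 3 measured around AT4G33150 were between -0.15 and 0.21. In the CHLM line none of these 11 passed. Of all probe sets 12.4% were called in the CHLD line and 9.75% in the CHLM line, and nothing is read from the counts of neighbours. None of the 4 genes flanking MCCB had a probe set named here.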
